A study of Homo sapiens with 6 samples.

Results

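Long non-coding RNAs (lncRNAs) are transcripts that are not translated into a recognised protein. The genes described here are the lncRNA genes that carry a symbol and were well covered in LOX-IMVI cells. They were chosen by measured values: a gene was taken when its biotype was lncRNA, its name was a symbol outside the microRNA host and SNHG series, and its total exon reads averaged 200 or more over the 6 libraries. This gave 162 genes of the 5562 lncRNA genes with such a symbol, of 18859 lncRNA genes, and of 47432 genes in all. The level that chose the members is given below as a description and was not tested. The rule used no comparison between the groups, but a gene near the limit could pass it through the group in which it was higher, and such members are named as they come up.

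LOX-IMVI is an established human melanoma line. Both groups were transduced with a lentiviral pLKO.1 vector and selected with puromycin. The shCtrl group, with 3 libraries, carried the control vector, and the shNFKBIZ group, also with 3 libraries, carried a short hairpin RNA against NFKBIZ, the gene for the nuclear NF-κB co-regulator IκBζ. The comparison asks which transcripts change when IκBζ is depleted in melanoma cells. A single hairpin in a single line was used, so effects of the hairpin and of the loss of its target cannot be told apart. The study describes its repeats as independent experiments, but the labels do not say so, and p-values measure only the spread between these libraries.

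lncRNAs act in several ways. Some stay in the nucleus and build structures there, such as NEAT1 in paraspeckles and MALAT1 in nuclear speckles. Others are exported and bind proteins or microRNAs, and others host small nucleolar RNAs (snoRNAs) in their introns. Many start close to a protein-coding gene and are transcribed away from it (divergent transcripts, names ending in -DT) or run antisense across it (names ending in -AS), where either the RNA or its transcription can affect the neighbour. Several are known to be induced by p53 or by inflammatory signalling.

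NFKBIZ (chromosome 3, positions 101827991 to 101861022, plus strand, GRCh38) was measured first, as the targeted gene. Its level was 41.4, 42.9 and 49.2 TPM in the shCtrl libraries and 13.7, 14.1 and 13.3 TPM in the shNFKBIZ libraries, where TPM is a level scaled to transcript length and to the depth of the library. The groups did not overlap, and NFKBIZ fell by 1.78 on the log2 scale (SE 0.0581, edgeR adjusted p = 7.2e-17). Each library held 22264473 to 24624839 exon reads, of which the 162 lncRNAs took 0.57 to 0.613%. Introns held 7.16 to 7.46% of gene reads in shCtrl and 7.63 to 8.15% in shNFKBIZ. Markers of the melanocyte lineage were low or absent. MLANA and SOX10 had 0 reads in every library, TYR had 0 or 1, PMEL, DCT and TYRP1 had at most 11, and MITF had 76 to 165. AXL, a marker of dedifferentiated melanoma, had 11373 to 14787 reads, EGFR and TNC were also well covered, and NGFR had 0 to 3. In shNFKBIZ, AXL and EGFR were higher (log2 fold change 0.17 and 0.66, edgeR adjusted p = 0.00205 and 2.5e-13). TNC was lower (-0.76, adjusted p = 1.11e-14), so these markers did not move together. Leukocyte and endothelial markers had 0 to 5 reads each. Of the keratinocyte markers, KRT5 and KRT1 had at most 1 read. KRT14 had 4 to 10 reads in shCtrl and 19 to 24 in shNFKBIZ (log2 fold change 1.37, adjusted p = 0.00128), and MITF was at -0.77. The part of these shifts in the results below was not tested.

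The 162 lncRNAs were unequal in level. Their mean exon reads had a median of 410 and ran from 204 to 16000. NEAT1 and MALAT1 alone held 23% of the reads of all members, and the 10 with the most reads held 46.6%. The smallest count of any member in any library was 137, so none was at 0. Just inside the limit were LINC00944, with a mean of 204.8 reads, and DLEU1, with 204.5. Just outside were PCBP1-AS1, with 199.8, and TMEM147-AS1, with 197.7. A mean of 200 was reached in both groups by 144 members. It was missed in shCtrl alone by 14 members and in shNFKBIZ alone by 4, and these 18 passed through the group in which they were higher. They therefore tended to differ between the groups, and counts are also given without them.

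Per unit of length, the most abundant lncRNAs were OVAAL, MALAT1, NORAD, LINC01425, GAS5, NEAT1, FGD5-AS1, DUXAP8, MYOSLID and LSP1P5_1. Their means over the 6 libraries were 302, 280, 272, 157, 152, 116, 99.9, 82.8, 76.3 and 64.1 TPM, while the median member had 11.4 TPM. OVAAL, first described as amplified in ovarian tumours, had 298, 298 and 310 TPM in shCtrl and 305, 302 and 299 in shNFKBIZ. Its TPM values overlapped, but in the edgeR fit it was called slightly lower (log2 fold change -0.08, adjusted p = 0.0409). LINC01425 had 139 to 157 TPM in shCtrl and 161 to 173 in shNFKBIZ (log2 fold change 0.07, adjusted p = 0.322). MYOSLID, known from smooth muscle, had 70.8 to 79.6 and 75.7 to 80.9 TPM (-0.03, adjusted p = 0.572). In shCtrl MALAT1 (348 TPM ± 50.8, SD, n = 3) and OVAAL (302 ± 6.71) led with overlapping libraries, ahead of NORAD (180 ± 7.45). In shNFKBIZ NORAD led (364 ± 13.4), ahead of OVAAL (302 ± 3.04) and MALAT1 (212 ± 14.0). DUXAP8 and FGD5-AS1 rose by 0.45 and 0.26. LSP1P5_1 is a pseudogene copy with only 4.72% of its reads unique to it, so its level cannot be told apart from that of its relatives.

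Many of these lncRNAs differed a little between the groups and few differed far. Each gene was tested with edgeR's quasi-likelihood test over all 13843 genes with enough reads, and all 162 members were tested. At an adjusted p of at most 0.05, 75 members were higher, 35 lower and 52 not called. The 110 called were 67.9% of the members. Over all genes tested, 65.3% were called (32.5% higher and 32.8% lower), and over all genes with a mean of 200 or more reads 72.7%, so the share called was near the background. The groups did not overlap in reads scaled to library size (CPM) in 113 members (69.8%), against 68.7% of all genes. The median log2 fold change of the members was 0.13, with quartiles of -0.11 and 0.44, and that of all genes was 0.00. Of the 144 members that reached the limit in both groups, 62 were higher, 31 lower and 51 not called (64.6% called, median 0.10). When libraries were scaled by their size alone the medians were 0.22 and 0.09. Since libraries come from bulk cells, fewer cells that express an RNA and less of it per cell cannot be told apart.

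At a fold change of 2 or more as well, 6 members (3.7%) were past the threshold, 3 higher and 3 lower. Over all genes tested it was 8.96% (3.84% higher and 5.12% lower), and over genes with a mean of 200 or more reads it was 4.54%. Of these 6, 4 reached the limit through a single group (PRDM8-AS1, GASAL1, LINC00680 and NIPBL-DT). Among the 144 that reached it in both, only APCDD1L-DT and NEAT1 were past the threshold (1.39%). The members ran from -1.61 to 1.47 on the log2 scale. At 1.5-fold or more, 20 were higher and 19 lower at that adjusted p, against 10.2% higher and 12.1% lower of all genes. Among the 144 members it was 14 and 16. Of the 9530 genes with a mean of 200 or more reads, 537 were higher and 1004 lower at these limits.

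**Figure D1:**
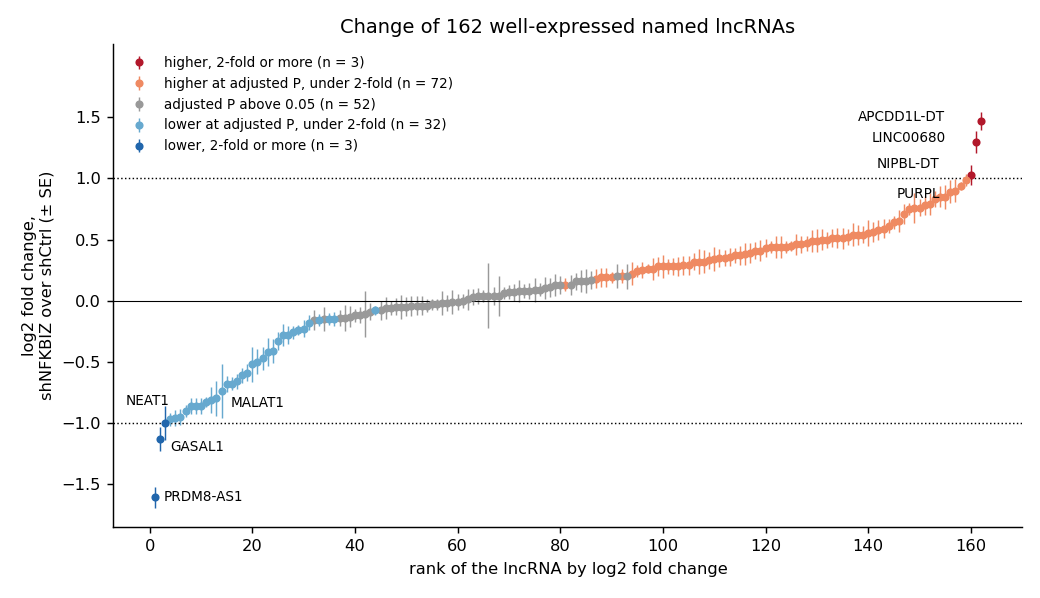
log2 fold change (shNFKBIZ over shCtrl, from edgeR) of each of the 162 lncRNAs against its rank, with bars for the standard error and dotted lines at 2-fold. The points run from PRDM8-AS1 at -1.61 to APCDD1L-DT at 1.47, with 3 members past each line and most called members between the lines.

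PRDM8-AS1 fell the most. It lies on the minus strand of chromosome 4 (80182637 to 80197410) and runs antisense across the start of PRDM8, a transcription factor gene. Its level was 44.7, 48.7 and 48.4 TPM in shCtrl and 14.6, 18.5 and 16.0 TPM in shNFKBIZ. It averaged 520 exon reads in shCtrl and 171.7 in shNFKBIZ, so it was a member only through the controls. The groups did not overlap, and PRDM8-AS1 was 3.06-fold lower in the knockdown (log2 -1.61, SE 0.083, adjusted p = 1.98e-13). Fragments that cross exon-exon junctions fell from 71, 68 and 50 to 16, 9 and 13 (-2.27), and intron reads fell by less (-0.54, SE 0.0774). PRDM8 itself had 106 to 113 TPM in shCtrl and 112 to 116 TPM in shNFKBIZ and was not called (-0.03, adjusted p = 0.546).

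GASAL1, on chromosome 8 (102805517 to 102810039, plus strand), had 16.8, 18.9 and 18.5 TPM in shCtrl and 10.1, 7.58 and 8.56 TPM in shNFKBIZ. With means of 348.3 and 160.7 reads, it too was a member only through the controls. All 3 knockdown libraries were below all 3 controls, a difference of -1.13 on the log2 scale (SE 0.1, adjusted p = 1.99e-09). Few fragments crossed its junctions, 5 to 15 a library, and with these alone it was at -0.99 (adjusted p = 0.0333).

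NEAT1, the scaffold RNA of paraspeckles, is on chromosome 11 (65422774 to 65445540, plus strand). It was at 142, 167 and 147 TPM in shCtrl and at 70.9, 95.2 and 75.6 TPM in shNFKBIZ, or 19358 to 24395 and 9458 to 12468 exon reads. The groups did not overlap, and NEAT1 was at -1.0 on the log2 scale (SE 0.137, adjusted p = 0.00299), at the 2-fold limit. Its fragments over junctions fell further, from 135 to 155 to 39 to 52 (-1.66, adjusted p = 3.85e-15). These fragments are few beside its exon reads, and the annotated exons cover its whole region. They therefore describe only a small spliced part of NEAT1. The 2-fold call was lost with library size scaling (-0.91), with a minimum of 10 counts in every library (-1.0), and without shCtrl replicate 2 (-0.92), shNFKBIZ replicate 1 (-0.92) or shNFKBIZ replicate 3 (-0.96). In each of these fits NEAT1 stayed lower at an adjusted p of at most 0.0171.

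MALAT1, its neighbour on chromosome 11 and a component of nuclear speckles, fell as well, though by less than 2-fold. It had 365, 388 and 291 TPM in shCtrl and 199, 227 and 209 in shNFKBIZ (-0.80, SE 0.143, adjusted p = 0.00775). Most MALAT1 is unspliced, and the 18 to 32 fragments a library that crossed a junction did not fall (0.12, adjusted p = 0.713). JPX and FTX, the other members among the nuclear architecture RNAs, are on chromosome X. FTX rose by 0.25 (SE 0.0649, adjusted p = 0.00211), from 1.64 to 1.88 TPM to 2.15 to 2.26 TPM. JPX had 3.82 to 4.26 and 4.21 to 4.74 TPM and was not called in exon reads (0.08, adjusted p = 0.291), while its intron reads rose (0.42, adjusted p = 1.22e-05).

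Of 13 proteins of paraspeckles and nuclear speckles, 7 were higher, 2 lower and 4 not called, with a median log2 fold change of 0.09 and none past 2-fold. The share called was 69.2%, near the 65.3% of all genes. PSPC1, a core paraspeckle protein, rose by 0.63 (SE 0.0467), from a mean of 45.7 to 75 TPM. NONO and SFPQ, the essential partners of NEAT1, were at -0.06 (adjusted p = 0.0957) and -0.02 (adjusted p = 0.565). HNRNPM fell by 0.24, and the splicing factor SRSF2 rose by 0.42. Of 26 factors of nuclear RNA decay, such as exosome subunits, 7 were higher, 7 lower and 12 not called, with a median of 0.03. That is 53.8% called, below the 65.3% of all genes. EXOSC6 was at 0.54, and NCBP2, of the nuclear cap-binding complex, at -0.53.

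APCDD1L-DT rose the most. It lies on the plus strand of chromosome 20 (58515379 to 58619888), and its start and that of APCDD1L, which runs the other way, are 20 bases apart. Its level was 5.42, 5.01 and 5.32 TPM in shCtrl and 15.0, 15.6 and 15.5 TPM in shNFKBIZ. Replicates were close and the groups far apart, and APCDD1L-DT was 2.77-fold higher in the knockdown (log2 1.47, SE 0.0697, adjusted p = 4.72e-14). Its intron reads, 305 to 355 in shCtrl and 689 to 720 in shNFKBIZ, rose too (0.98, SE 0.0679).

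LINC00680, on chromosome 6 (57946074 to 57961501, minus strand), had 8.18, 7.7 and 8.88 TPM in shCtrl and 19.7, 24 and 20.7 in shNFKBIZ. It rose by 1.30 (SE 0.0916, adjusted p = 4.44e-11) in exon reads and by 1.09 (SE 0.172) in intron reads, with no overlap of the groups. Its mean was 150.0 reads in shCtrl and 372.3 in shNFKBIZ, so it was a member only through the knockdown. Of its reads, 77.1% were unique, so part of the count may belong to related copies.

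NIPBL-DT, on chromosome 5 (36864425 to 36876700, minus strand), starts 69 bases from NIPBL, which encodes the loader of cohesin. It had 4.36, 4.24 and 4.52 TPM in shCtrl and 9.47, 10.1 and 8.79 in shNFKBIZ, and it rose by 1.03 (SE 0.0814, adjusted p = 2.84e-10). It was likewise a member only through the knockdown, with 186.0 reads on average in shCtrl and 383.7 in shNFKBIZ. Without shNFKBIZ replicate 2 the value was 0.99, just under 2-fold. NIPBL had 30.0 to 30.6 TPM in shCtrl and 28.2 to 28.3 in shNFKBIZ, a small fall (-0.19, adjusted p = 0.000222). The window around the start of NIPBL-DT is shown because IκBζ acts through NF-κB and the window holds a match to the NF-κB consensus. It covers chr5:36876645-36876944 (minus strand, GRCh38.p14, from RefSeq), from 250 bases before the start to 50 after, and capitals mark the match.
NIPBL-DT: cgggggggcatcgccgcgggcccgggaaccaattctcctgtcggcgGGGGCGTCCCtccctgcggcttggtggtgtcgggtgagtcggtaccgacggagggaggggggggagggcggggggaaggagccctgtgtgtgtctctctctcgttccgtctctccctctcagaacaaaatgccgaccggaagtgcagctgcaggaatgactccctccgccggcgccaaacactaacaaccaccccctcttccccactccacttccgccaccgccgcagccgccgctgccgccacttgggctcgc

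Such a match is common. RefSeq windows were at hand for 102 of the 162 members, and on both strands the consensus was in 12 of them (11.8%), against 11.3% of 35116 windows of all genes. The 12 members with a match had a median log2 fold change of 0.37 and the others 0.16. An AP-1 site (TGANTCA) was in 11 members' windows (10.8%, against 7.71% of all), a STAT site (TTCNNNGAA) in 8 (7.84% against 7.66%) and the E-box CACGTG in 12 (11.8% against 7.26%). Members with an AP-1 site, a STAT site or the E-box had medians of 0.04, 0.03 and 0.12, and those without had 0.18 for each. None of these differences was tested. A match describes letters only and does not show binding.

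**Figure D2:**
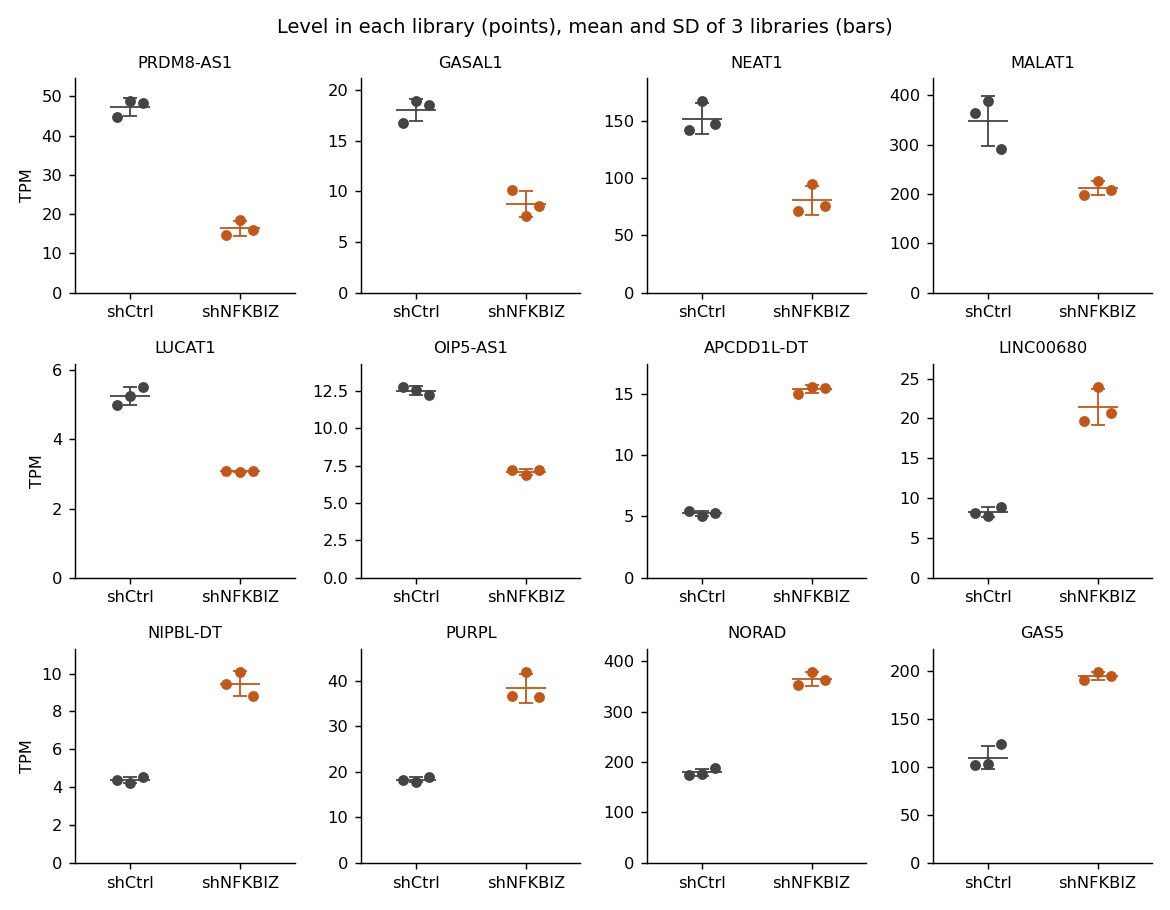
Level in TPM (vertical axis, from 0) of 12 lncRNAs in each library of the shCtrl and shNFKBIZ groups, with the mean and standard deviation of 3 libraries. In each panel the groups do not overlap, with the first 6 genes lower and the last 6 higher in shNFKBIZ.

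The lncRNAs linked to p53 that were among the members were PURPL, NORAD, PVT1 and LINC-PINT, and all 4 were called higher, with a median of 0.65. Such calls were made for 32.5% of all genes. PURPL, which is induced by p53 and restrains it, had 18.2, 17.7 and 18.8 TPM in shCtrl and 36.6, 42.0 and 36.4 in shNFKBIZ. It rose by 0.99 (SE 0.0498, adjusted p = 1.31e-13), just under 2-fold. It passed 2-fold with library size scaling (1.08), without shNFKBIZ replicate 1 (1.01) or 3 (1.02), and in junction fragments (1.72). PVT1, beside MYC, rose from 7.38 to 8.36 TPM to 8.93 to 10.8 TPM (0.20, adjusted p = 0.00769). LINC-PINT, itself a p53 target, rose by 0.37 (adjusted p = 0.000262).

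NORAD, which is induced by DNA damage and helps to keep the genome stable, had 174, 176 and 188 TPM in shCtrl and 352, 379 and 362 in shNFKBIZ. The groups did not overlap, and NORAD rose by 0.94 (SE 0.0335, adjusted p = 3.45e-16). With library size scaling it was at 1.03.

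The list of snoRNA hosts outside the SNHG names gave 6 members: GAS5, EPB41L4A-AS1, ZFAS1, DANCR, LINC-PINT and CYTOR. LINC-PINT and CYTOR are also in the p53 and innate immune lists, and hosting of snoRNAs was not checked here. Of these 6, 4 rose, DANCR fell and CYTOR was not called, and their median was 0.28, against 32.5% higher and 32.8% lower of all genes. GAS5 had 102, 103 and 124 TPM in shCtrl and 190, 199 and 194 in shNFKBIZ, a rise of 0.75 (SE 0.0518, adjusted p = 1.25e-08). Its fragments over junctions rose from 1547 to 1689 to 3021 to 3125 (0.97). Its intron reads, 36 to 40 in shCtrl and 42 to 47 in shNFKBIZ, were not called (0.10, SE 0.187). EPB41L4A-AS1, named after its values were seen, rose by 0.76 (SE 0.0694, adjusted p = 3.04e-09), from 10.8 to 12.8 TPM to 20.2 to 21.6 TPM. ZFAS1 rose by 0.19 (adjusted p = 0.00083). DANCR had 17.6 to 18.2 and 15.9 to 17.7 TPM, a fall of 0.15 (adjusted p = 0.00994).

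Of 22 lncRNAs linked to innate immunity or NF-κB that the tables held, 4 met the rule for members, and 2 rose, 1 fell and 1 was not called. Over all genes, 32.5% were called higher and 32.8% lower. LUCAT1, a stress-induced RNA that restrains interferon responses, fell. It had 5.00, 5.26 and 5.53 TPM in shCtrl and 3.09, 3.06 and 3.08 in shNFKBIZ (-0.86, SE 0.0672, adjusted p = 2.57e-10), and its intron reads fell as much (-0.82, SE 0.0819). NRAV, which restrains antiviral genes, rose by 0.78 (SE 0.0796, adjusted p = 1.92e-08), from 9.01 to 11.2 TPM to 17.1 to 19.4 TPM. CHROMR, which works in cholesterol handling and interferon responses, rose by 0.41 (adjusted p = 1.43e-05), from 5.78 to 6.97 TPM to 8.16 to 9.33 TPM. CYTOR had 16.4 to 19.3 TPM and 17.7 to 18.7 TPM. It was at -0.03 in exon reads (adjusted p = 0.601), at -0.23 in intron reads (adjusted p = 0.000655) and at 0.32 in junction fragments (adjusted p = 0.00124). Only 68.9% of its reads were unique. RDUR, the nearest member to NFKBIZ, starts 112868 bases from it on chromosome 3. It was at -0.52 (SE 0.144, adjusted p = 0.0073), with 8.58% unique reads, and its means of 252.7 and 178.7 reads made it a member only through the controls. None of the 11 lncRNAs in the tables that are linked to melanocytes or melanoma was a member.

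Among 6 cytoplasmic or cancer-linked RNAs, NORAD and TMPO-AS1 rose, OIP5-AS1 and DANCR fell, and CRNDE and CHASERR were not called. The share called was 66.7%, near the 65.3% of all genes. OIP5-AS1, which triggers decay of the microRNA miR-7, had 12.8, 12.6 and 12.2 TPM in shCtrl and 7.24, 6.88 and 7.18 in shNFKBIZ. It fell by 0.90 (SE 0.0488, adjusted p = 4.61e-13), while its few intron reads, 14 to 41 a library in either group, were not called (0.12, SE 0.268). TMPO-AS1 rose by 0.46 (adjusted p = 8.29e-05). CRNDE was at -0.14 (adjusted p = 0.055) and CHASERR, which holds its neighbour CHD2 in check, at -0.05 (adjusted p = 0.581).

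Several other members fell by less than 2-fold, and they are named because of their values. LINC02693 on chromosome 17 was at -0.97, UBBP4, a ubiquitin pseudogene, at -0.96, LINC02945 on chromosome 4 at -0.95, LINC00294 at -0.86, GTF2IP1 at -0.86, EBLN3P, derived from a bornavirus gene, at -0.83 and LINC00460 at -0.68. In UBBP4 the levels were 69.4, 68.5 and 61.2 TPM against 37.4, 36.2 and 35.3, and without shCtrl replicate 3 it passed 2-fold (-1.02). In junction fragments LINC02693 (-1.20), LINC02945 (-1.01) and GTF2IP1 (-1.31) were past 2-fold. GTF2IP1 has 14.5% unique reads and cannot be told apart from its relatives in the GTF2I family. The same holds for FAM225A and FAM225B, near-copies with 11.3 and 17.9% unique reads, which were at 0.47 and 0.85.

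The members were next grouped by position relative to protein-coding genes. Only the nearest protein-coding start was considered, so THAP9-AS1, with a nearer start on its own strand, is not counted as divergent. Of the 162, 46 had that nearest start within 1000 bases and on the opposite strand (divergent start). In this class 30 were higher, 4 lower and 12 not called, with a median of 0.28, against 32.5% higher and 32.8% lower over all genes. Of 45 others antisense to a coding gene, 17 were higher and 12 lower (median 0.03). Of 65 that overlapped no coding gene, 26 were higher and 19 lower (median 0.07), and of 6 on the same strand as a coding gene, 2 were higher and 0 lower (median 0.00). By name, the 17 that end in -DT had 12 higher and 1 lower (median 0.32), the 50 in -AS 21 and 12 (0.09), the 31 LINC genes 13 and 8 (0.04), the 26 with pseudogene names 10 and 6 (0.12), and the 38 others 19 and 8 (0.17). Of the 37 divergent members that reached the limit in both groups, 22 were higher and 4 lower (median 0.20). Differences between these classes were not tested. The median of the divergent class was 0.24 to 0.30 when each library was left out in turn and 0.37 with library size scaling, where all genes were at 0.09. In intron reads, 33 of the class could be tested and 8 were higher and 1 lower (median 0.10), against 19.3% higher and 19.5% lower of all genes. In junction fragments 4 of 31 were higher and 0 lower (median 0.16), against 27.0 and 27.9% of all genes.

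**Figure D3:**
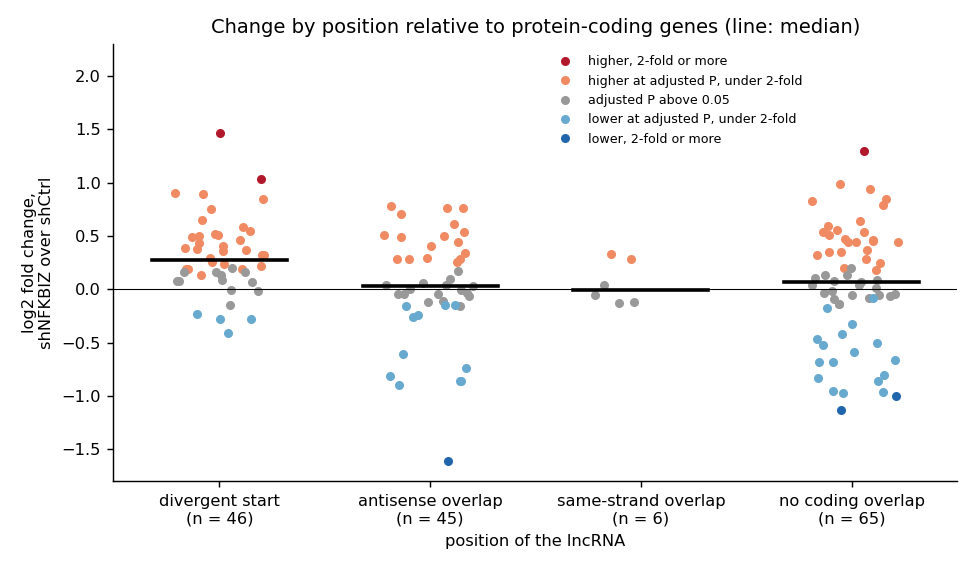
log2 fold change (vertical axis) of the 162 lncRNAs in 4 classes of position relative to protein-coding genes, with a point per gene and a line at the median. The divergent class lies mostly above 0 (median 0.28), while the medians of the other classes are 0.03, 0.00 and 0.07.

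The coding partners of the divergent lncRNAs were called in either direction about as often. For 43 pairs in which both genes were tested, the median was 0.29 for the lncRNAs and 0.00 for the coding genes. Of these coding genes 15 were higher and 19 lower, against 32.5% higher and 32.8% lower of all genes. Both were called in 23 pairs, 9 in the same direction (8 higher) and 14 in opposite directions, of which 12 had the lncRNA higher and the coding gene lower. As 30 of the 46 divergent lncRNAs were higher and 4 lower, most called pairs hold a higher lncRNA in either case. Whether opposite calls were more frequent than these shares give was not tested. Pearson's r over the 43 pairs was 0.09 and Spearman's rho 0.03, as a description, since pairs share libraries and scaling. In some of these pairs the annotated exons share bases, and reads were counted without regard to strand.

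HK2-DT and HK2 were the plainest opposed pair, and they were singled out after their values were seen. HK2 encodes hexokinase 2, the enzyme of the first step of glycolysis. HK2-DT had 18.2, 17.2 and 21.6 TPM in shCtrl and 37.1, 39.5 and 35.6 in shNFKBIZ, a rise of 0.90 (SE 0.0948, adjusted p = 2.95e-08). HK2 had 74.2, 76.6 and 76.7 TPM in shCtrl and 41.3, 42.8 and 38.5 in shNFKBIZ, a fall of 0.97 (SE 0.0417, adjusted p = 7.87e-15). HK2-DT averaged 154.7 reads in shCtrl and 291.7 in shNFKBIZ and was a member only through the knockdown. The groups did not overlap in either gene, and their annotated exons share no base. The 2 starts lie 140 bases apart, so the window of HK2-DT at chr2:74833938-74834237 (minus strand, GRCh38.p14, from RefSeq) holds both, and it is shown with the bases between them in capitals.
HK2-DT: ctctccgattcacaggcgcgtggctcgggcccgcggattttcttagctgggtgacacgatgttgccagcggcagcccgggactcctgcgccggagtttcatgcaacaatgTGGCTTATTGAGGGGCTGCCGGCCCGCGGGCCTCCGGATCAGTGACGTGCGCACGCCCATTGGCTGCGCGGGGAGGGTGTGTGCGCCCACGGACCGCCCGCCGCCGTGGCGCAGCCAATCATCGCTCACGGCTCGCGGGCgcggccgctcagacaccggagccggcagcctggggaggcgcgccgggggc

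Other divergent pairs with opposite calls were TMCC1-DT (0.32) with TMCC1 (-1.41) and TRAM2-AS1 (0.41) with TRAM2 (-0.96). RIPK2 encodes a kinase of NOD receptor signalling and fell by 1.35, from 48.6 to 53.3 TPM to 20.5 to 22.2 TPM, while RIPK2-DT, whose start is 6 bases away, was not called (0.16, adjusted p = 0.0531). Pairs that rose together were APCDD1L-DT with APCDD1L (1.0, from 1.83 to 2.31 TPM to 3.79 to 4.91 TPM), LBX2-AS1 (0.89) with LBX2 (0.77) and MAGI2-AS3 (0.52) with MAGI2 (0.84, with 32 to 84 reads a library). The annotated exons share 21 bases in the APCDD1L pair, 650 in the LBX2 pair and 268 in the MAGI2 pair. Strand was ignored in counting, so the reads of these partners cannot be fully told apart. LBX2-AS1 was a member only through the knockdown, with means of 163 reads in shCtrl and 304 in shNFKBIZ.

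Of the members, 128 overlapped another gene by region and 85 a protein-coding one, while 34 overlapped none. Among those 34, 20 were higher and 4 lower (median 0.32), against 32.5 and 32.8% of all genes. GASAL1 was the only one past 2-fold (2.94%, against 8.96% of all genes). Without the 6 that reached the limit in a single group, 16 of 28 were higher and 3 lower (median 0.26). There were 84 pairs of a member (68 of them) and an overlapping coding gene in which both were tested, some of them also divergent pairs. In 11 pairs both were called in the same direction, in 19 in opposite directions, and in 54 not both were called. Of the 19, 12 had the lncRNA higher and the coding gene lower. Counted per pair, the coding gene was higher in 21 and lower in 31, against 32.5% and 32.8% of all genes. Whether opposite calls exceed what these shares give was not tested. APCDD1L-DT with APCDD1L was the only pair past 2-fold in both. Over the 84 pairs r was 0.11 and rho 0.06, and r was 0.31 over the 15 pairs whose annotated exons share no base and 0.08 over the 69 that share some. Reads were counted without regard to strand, so in the latter pairs the partners' reads cannot be fully told apart.

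**Figure D4:**
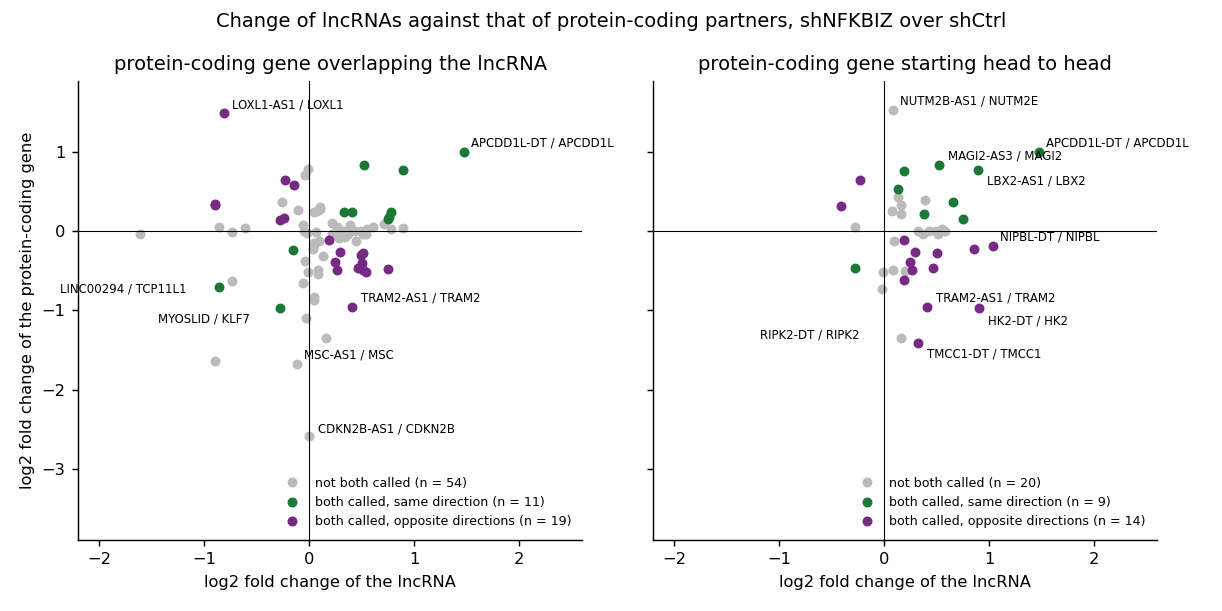
log2 fold change of each lncRNA (horizontal axis) against that of its protein-coding partner (vertical axis), for 84 overlapping pairs (left) and 43 divergent pairs (right), coloured by whether both were called at an adjusted p of at most 0.05. Points fill all 4 quadrants, with 19 opposite and 11 same-direction pairs on the left and 14 and 9 on the right.

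LOXL1-AS1 and LOXL1, which encodes an enzyme that crosslinks elastin and collagen, changed in opposite directions, and they too were picked for their values. LOXL1-AS1 had 7.54, 9.50 and 9.82 TPM in shCtrl and 5.48, 4.81 and 5.86 in shNFKBIZ (-0.81, SE 0.107, adjusted p = 1.21e-06). Its means of 297.3 and 171.0 reads made it a member only through the controls. LOXL1 had 2.43, 2.95 and 2.48 TPM in shCtrl and 7.79, 7.60 and 8.14 in shNFKBIZ (1.49, SE 0.13, adjusted p = 1.36e-09). Their exons share 335 bases on opposite strands.

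Some coding genes fell while the lncRNA across them was not called in exon reads. CDKN2B, which encodes the cell cycle inhibitor p15, had 20.2 to 24.2 TPM in shCtrl and 3.67 to 4.39 TPM in shNFKBIZ (-2.59, SE 0.1). CDKN2B-AS1, or ANRIL, had 6.73 to 8.22 and 7.52 to 7.90 TPM (0.00, adjusted p = 0.972), but it was higher in intron reads (0.27, adjusted p = 0.000188) and in junction fragments (0.49, adjusted p = 0.00869). The transcription factor gene KLF7 had 44.2 to 47.2 TPM and 22.2 to 22.7 TPM (-1.09), with MYOSLID at -0.03. MSC, another transcription factor gene, was at -1.68 and MSC-AS1 at -0.12 (adjusted p = 0.133).

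Intron reads gave a second readout that the choice of members did not use directly. Exon and intron changes went together, so members that reached the limit through a single group bring that choice along. LINC00680 and LOXL1-AS1 are among them, and intron counts without such members are not given. Of the 162, 132 had enough of them, and 42 were higher and 23 lower (49.2%), against 38.8% of all genes called in intron reads. Past 2-fold were 4 (3.03%), against 6.60% of all genes: LINC00680 (1.09) and CTBP1-DT (1.38) were higher, and LOXL1-AS1 (-1.10) and GTF2IP1 (-1.03) were lower. In 48 members both readouts were called, all 48 in the same direction, and the like share over all genes was not computed. In 36 the exon reads alone were called, in 17 the intron reads alone and in 31 neither. Over the 132 members r between the exon and intron fold changes was 0.80. Values stood apart in OIP5-AS1, GAS5 and LINC00460 (exon -0.68, intron 0.13 with SE 0.186), where exon reads changed and intron reads were not called. CTBP1-DT was at 0.61 in exon reads and 1.38 in intron reads (SE 0.259). The differences between exon and intron changes were not tested.

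**Figure D5:**
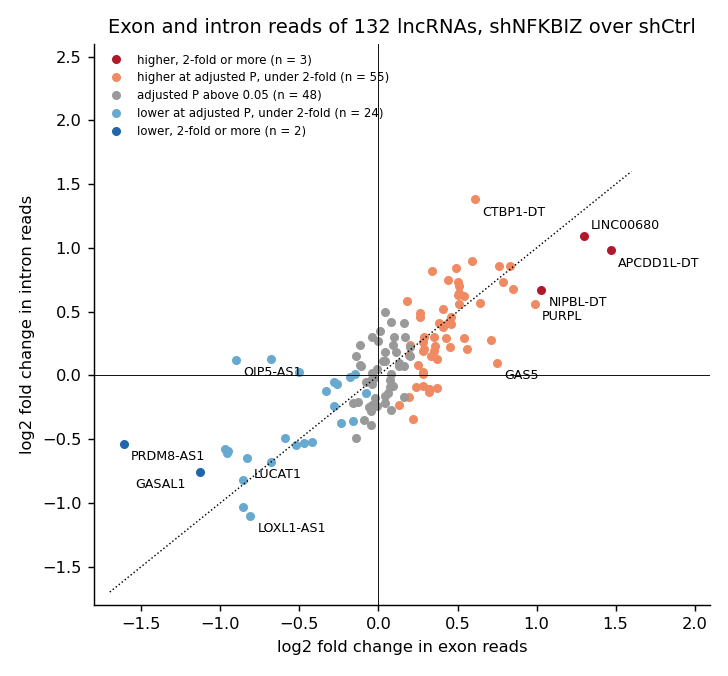
log2 fold change in exon reads (horizontal axis) against that in intron reads (vertical axis) for the 132 lncRNAs tested in both, with a dotted line where they are equal. Most points follow the line (r = 0.80), while OIP5-AS1 and GAS5 lie near 0 on the vertical axis only.

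The lncRNAs were last divided by a short sequence. GGAACTC had been picked earlier in the transcripts of protein-coding genes of these same libraries, because genes that hold it tended to be lower. The lncRNAs come from the same libraries and hairpin, so their values are not independent of that choice and are a description. In the longest GENCODE transcript of each member it was found in 30 of the 162, with 48 sites. Of these 30, 9 were higher, 9 lower and 12 not called, with a median of 0.01 and 2 past 2-fold, both lower (PRDM8-AS1 and NEAT1). Of the 132 without it, 66 were higher, 26 lower and 40 not called, with a median of 0.18 and 3 higher and 1 lower past 2-fold. Of all genes, 32.5% were higher and 32.8% lower, with a median of 0.00. The difference was not tested. Transcripts with the sequence were longer (median 5750 bases) than those without (3630), and the part of length was not tested. In intron reads the medians were -0.01 over 25 members and 0.11 over 107. The sites of 4 members that fell are shown with 10 bases on either side as examples of members that hold the sequence and were lower. They were picked for their values, from among 9 such members, and are on GRCh38, at chr4:80182991-80183017, chr17:21535122-21535148 and chr5:91314217-91314243 (minus strand) and chr9:37088355-37088381 (plus strand), with the sequence in capitals. LINC02693 holds 4 sites, of which the first is shown, and the others hold 1.
PRDM8-AS1: atatgtcctgGGAACTCaaactctgct
LINC02693: catgctctgtGGAACTCagggtcttca
LUCAT1: tcacccagctGGAACTCttatgggacc
EBLN3P: aggctagtctGGAACTCctgggctcat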

How the data were processed

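RNA from LOX-IMVI cells, 3 shCtrl and 3 shNFKBIZ libraries, was sequenced. The authors mapped reads to GRCh38 with CLC Genomics Workbench and deposited, per gene, whole-number counts of total exon reads, unique exon reads, gene reads, intron reads and fragments across exon-exon junctions. Strand was ignored, pairs were counted once, and reads with several matches were kept. Library totals were 22264473 to 24624839 exon reads, and their number limits precision for low genes. The deposited TPM values were only compared with TPM recomputed from exon reads and exon length. The sequencing provider differs between labels and methods and is left out.

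Groups come from the sample titles. Exon reads of all genes were tested with edgeR 4.0.16 (filterByExpr, TMM, robust quasi-likelihood fit, R 4.3.3, Benjamini-Hochberg over all genes tested, two-sided). Past the threshold means 2-fold or more with an adjusted p no higher than 0.05. Intron reads were fitted alike. Alternatives were other scalings, filters, reads and thresholds, DESeq2 1.42.0, a replicate block and each library left out. The count of junction fragments was an alternative chosen after seeing the data. On simulated counts for this comparison, the exon fit called 192 of 194 changed genes among 13678 genes and 4 unchanged ones. The intron fit called 190 of 190 among 11905 and 6 unchanged ones. These totals were not split by size of change. The share called among changes as small as those in the lncRNAs was not tested, and these totals do not give it.

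Members and lists were chosen with earlier results of these data known. Named were NFKBIZ, the 10 members of highest TPM, members past the threshold, list members (all past it and up to 3 others) and overlapping pairs past it in both. Further lncRNAs (LUCAT1, OIP5-AS1, CRNDE, CHASERR, LINC-PINT, EPB41L4A-AS1 and all others) were named after their values were seen. Overlaps come from the regions in the files, exons and transcripts from GENCODE 44 (all 162 members found, 160 with the same coordinates), and start windows from RefSeq (GRCh38.p14, 102 members). Some items are not reported here.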

Additional observations from a re-analysis of the deposited data

How the results depend on the processing

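Replicate numbers did not pair the libraries: same-numbered deviations correlated at 0.0206, 0.0564 and 0.0292. With a replicate block 6 lncRNAs and 1244 genes were past the threshold. At an adjusted p alone there were 110 lncRNAs (75 higher, 35 lower) and 9039 genes, against 6 and 1241 with the fold limit. Only 1 of the lncRNAs that overlap no other gene passed. Library size scaling gave 5 higher, junction fragments 5 lower and 700 genes, and a TPM difference above 4 gave 555 genes. The median was 0.22 with library size scaling, 0.15 with unique reads and 0.10 to 0.17 when a library was left out. The correlation over overlapping pairs was -0.12 with junction fragments, 0.32 on the same strand and 0.31 without shared exon bases. The cause of these shifts was not tested.

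Signs changed only in lncRNAs near 0 or in junction fragments. With library size scaling OVAAL (0.01), MYOSLID (0.06), LSP1P5_1 (0.04), CYTOR (0.06) and CHASERR (0.04) turned positive. With junction fragments MALAT1 (0.12), CYTOR (0.32) and MSC-AS1 (0.14) did, and RIPK2-DT was at -0.03. CYTOR was at 0.08 with unique reads and from -0.08 to 0.02 when a library was left out (0.02 without shCtrl replicate 3), LSP1P5_1 at 0.02 without shNFKBIZ replicate 3, and CHASERR from -0.09 to 0.01 (0.01 without shNFKBIZ replicate 2). CDKN2B-AS1 was at -0.01 with no filter, -0.00 with DESeq2, and -0.05 to -0.02 without shCtrl replicate 1 (-0.02) or 2 (-0.05) or shNFKBIZ replicate 3 (-0.02). Of all settings for single lncRNAs, 749 left side and sign alone, 7 lost and 9 gained the 2-fold call, and 18 changed sign.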
